A study of Mus musculus with 8 samples.

Results

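The CC chemokines of macrophages and the receptor Ccr2 were examined in microglia of the mouse optic nerve. The 8 genes were taken from the deposited table by symbol, and all 8 were found once each among 37447 genes: the ligands Ccl2, Ccl3, Ccl4, Ccl6, Ccl7, Ccl9 and Ccl12, and Ccr2. RNA was sequenced from cells that had been dissociated from the tissue, enriched on a Percoll gradient and flow sorted, with 4 libraries per group, 2 from females and 2 from males. FFC mice (Nf1 flox/flox; GFAP-Cre) carry floxed Nf1 alleles and the Cre recombinase under the promoter of the astrocyte gene Gfap. FF mice (Nf1 flox/flox) carry the same floxed alleles without Cre and were the controls. Both groups were C57BL/6 and 3 months of age. GFAP-Cre is known to act in astrocytes, so the comparison asks how microglia differ when Nf1 is lost in other cells of the nerve. The labels name neither the sorting markers nor the number of animals behind a library, and the p-values measure the spread between these libraries.

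Chemokines are small secreted proteins that bind G protein-coupled receptors on leukocytes and draw the cells along a gradient. In the CC class the first pair of conserved cysteines is adjacent. Activated macrophages and microglia secrete several of them, and the ligands of Ccr2 are known for bringing monocytes out of the blood into inflamed tissue. In mice, Ccl2, Ccl7 and Ccl12 bind Ccr2, and Ccl3, Ccl6 and Ccl9 bind Ccr1. Ccl6, Ccl9 and Ccl12 are rodent genes.

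The coding sequences show the feature that defines the class and how far the ligands resemble one another. Each of the 7 ligand coding sequences in GENCODE M21 held 1 pair of adjacent in-frame cysteine codons, given in capitals within 30 bases of coding sequence for the ligands listed.
Ccl4: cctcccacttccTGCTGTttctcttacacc
Ccl6: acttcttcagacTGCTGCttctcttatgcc
Ccl9: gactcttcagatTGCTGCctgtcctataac
Ccl2: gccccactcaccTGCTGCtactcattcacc
Ccl7: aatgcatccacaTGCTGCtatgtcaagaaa
Ccl12: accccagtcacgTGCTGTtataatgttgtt
The first cysteine of the pair was codon 34 in Ccl2 and Ccl4, codon 33 in Ccl7 and Ccl12, codon 50 in Ccl6 and codon 57 in Ccl9. Over the 21 pairs of ligands, coding identity ranged from 56.5% to 70.7% of aligned bases. The closest pair was Ccl6 and Ccl9 (70.7%), followed by Ccl3 and Ccl4 (69.6%) and by Ccl7 and Ccl12 (68.1%). The longest stretch identical between any pair was 23 bases, in Ccl6 and Ccl9.

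The ligand genes lie in a pair of stretches of chromosome 11 (positions as in the deposited table, build mm9). Ccl2 (ENSMUSG00000035385, 81849073 to 81850955), Ccl7 (ENSMUSG00000035373, 81859214 to 81861027) and Ccl12 (ENSMUSG00000035352, 81915347 to 81916902) span 67830 bases. Ccl9 (ENSMUSG00000019122, 83386421 to 83392138), Ccl6 (ENSMUSG00000018927, 83401384 to 83406589), Ccl3 (ENSMUSG00000000982, 83461346 to 83462857) and Ccl4 (ENSMUSG00000018930, 83476086 to 83478185) follow Ccl5 (ENSMUSG00000035042, 83339280 to 83344020) within 138906 bases. Ccr2 (ENSMUSG00000049103) lies on chromosome 9, 124016689 to 124028296. Ccl6 lies inside the interval of E230016K23Rik, and Ccl2 overlaps Gm17268, which is listed at 0 FPKM in all 8 libraries. E230016K23Rik had 0.146, 64.9, 0.208 and 0 FPKM in FFC 1 to FFC 4 and 1.81, 0.664, 17.9 and 0.0905 FPKM in FF 1 to FF 4. It exceeded Ccl6 in 2 libraries, FFC 2 and FF 1, and nothing in the labels says whether strand was used in assigning reads.

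The values are FPKM, which is scaled per length of transcript, and levels are set side by side between genes on that scale only. Whether amplification of the RNA or shared reads shifted some genes more than others was not tested. The depth of a library is unknown, since the table holds no read counts. Over genes with a value in all libraries, summed FPKM lay between 525184 and 651231 in FFC and between 367760 and 700291 in FF, with FF 2 and FF 4 lowest. Those 2 libraries also had the lowest median Spearman correlation with the others (0.398 and 0.464, against 0.507 to 0.597). The sorted cells carried microglial markers: all 12 listed were above 0 in every library, summing to 2903 to 5607 FPKM in FFC and 1668 to 4789 FPKM in FF. The astrocyte gene Gfap stayed at or below 0.310 FPKM in FFC and 1.03 FPKM in FF. Other genes of the astrocyte list were not all low. Slc1a3 had 85.8 to 182 FPKM in FFC and 49.7 to 192 FPKM in FF, and Clu had 23.4 to 127 FPKM in FF. Neutrophil markers summed to 5.44 to 829 FPKM in FFC and 193 to 2813 FPKM in FF, so transcripts of other cells were present. In RNA from sorted pools, more cells of a type and more RNA per cell cannot be told apart.

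Ccl4 and Ccl6 were higher in every FFC library than in any FF library, and Ccl3 was higher in 4 FFC libraries than in 3 of the 4 FF libraries. None of the 8 genes passed the test after adjustment over all genes, and nor did any other gene: limma, a linear model with moderated variances fitted to log2(FPKM + 1), called 0 of 17753 genes (0.0%) at an adjusted p under 0.05, with a smallest adjusted p of 0.382. At an unadjusted p under 0.05, the fit gave 3 of the 8 genes, Ccl3, Ccl4 and Ccl6, all higher in FFC, beside 6.46% of all tested genes (4.52% higher and 1.94% lower). Without overlap and higher in FFC there were 2 of 8, beside 3.05% of all tested genes. In the mean, 5 of 8 were higher and 3 lower in FFC, beside 56.7% of tested genes higher. The median difference of the 8 was 1.02 on the log2(FPKM + 1) scale, and that of all tested genes 0.19.

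**Figure D1:**
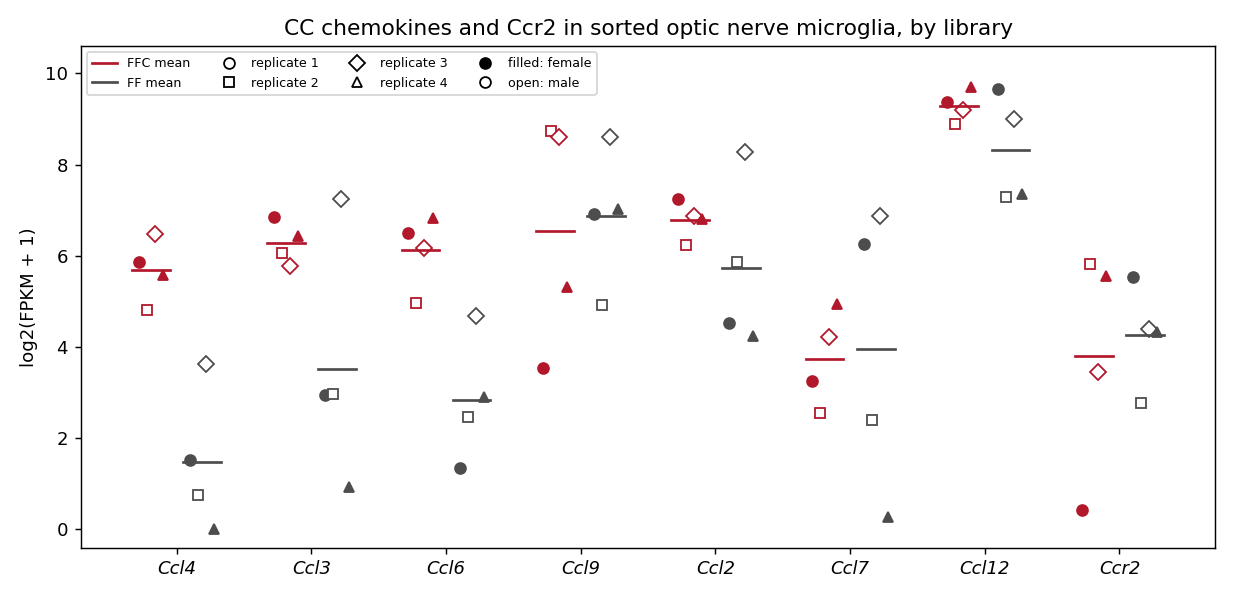
Level of each gene in each library, as log2(FPKM + 1) on the vertical axis, with FFC in red left of FF in grey; symbols mark the replicate number, filled symbols females, open symbols males, and bars the mean of 4 libraries. The red and grey points separate for Ccl4 and Ccl6 and overlap for the other genes, with FF 3 (grey diamond) high for Ccl3, Ccl2 and Ccl7.

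Ccl4, a chemokine that attracts macrophages and T cells, showed the largest difference of the 8. It had 57.1, 27.1, 87.3 and 46.9 FPKM in FFC 1 to FFC 4, against 1.87, 0.697, 11.3 and 0 FPKM in FF 1 to FF 4, where FF 4 is listed at 0. The lowest FFC value was thus above the highest FF value, that of FF 3. The difference of mean log2(FPKM + 1) was 4.21 ± 0.86 (SE, n = 4 per group, as in all values here), with a 95% interval from 2.35 to 6.06. The exact two-sided permutation p was 0.0286, the smallest that 4 against 4 libraries can give, and the limma adjusted p was 0.444. By unadjusted p it stood at place 11 of the tested genes.

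Ccl3, the neighbour of Ccl4 and a ligand of Ccr1, had 114, 66.3, 54.0 and 85.1 FPKM in FFC 1 to FFC 4. In FF 1 to FF 4 it had 6.71, 6.77, 150 and 0.890 FPKM. The FFC libraries lay within a 2.11-fold range and the FF libraries within a 168-fold range. FF 3 was above all 4 FFC libraries and the other 3 FF libraries were below all of them. The log2 difference was 2.77 ± 1.07 (95% interval 0.46 to 5.07; exact two-sided permutation p = 0.143; limma adjusted p = 0.712), and 4.01 without FF 3. Without FF 2 and FF 4, the libraries that resembled the rest least, it was 1.19.

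Within a library, Ccl3 exceeded Ccl4 in 3 of 4 FFC libraries and in all 4 FF libraries. The FPKM ratio of Ccl3 to Ccl4 was 2.00, 2.44, 0.618 and 1.81 in FFC 1 to FFC 4, against 3.59, 9.72 and 13.3 in FF 1 to FF 3. No ratio could be formed in FF 4, where Ccl4 is listed at 0. The ratio was thus lower in every FFC library than in the 3 FF libraries that gave one. That separation depends on the scale and rests on low Ccl4 values (1.87 and 0.697 FPKM in FF 1 and FF 2). As a difference of log2(FPKM + 1), Ccl3 minus Ccl4 was 0.92 in FF 4, below FFC 1 (0.99) and FFC 2 (1.26).

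Ccl6, a rodent chemokine made by macrophages, had 89.2, 30.4, 71.5 and 112 FPKM in FFC 1 to FFC 4. In FF 1 to FF 4 it had 1.55, 4.52, 24.5 and 6.49 FPKM. The groups did not overlap, although FFC 2, the lowest of its group, was close to FF 3, the highest of the other. Mean levels were 75.9 ± 34.7 FPKM in FFC and 9.26 ± 10.3 FPKM in FF (SD). The log2 difference was 3.27 ± 0.80 (95% interval 1.55 to 4.99; exact two-sided permutation p = 0.0286; limma adjusted p = 0.518). Ccl6 differed by 3.11 without FF 2 and FF 4, and Ccl4 by 3.11 as well.

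Ccl9 lies next to Ccl6 and is its closest relative among the ligands, and its values overlapped between the genotypes. It had 10.5, 428, 389 and 39.0 FPKM in FFC 1 to FFC 4, and 120, 29.6, 389 and 130 FPKM in FF 1 to FF 4. The low FFC libraries were the 2 from females and the high ones the 2 from males. The log2 difference was -0.32 ± 1.11 (95% interval -2.71 to 2.06; exact two-sided permutation p = 0.943; limma adjusted p = 0.948), and it was 0.68 without FFC 1, 0.09 without FFC 4 and 0.25 without FF 3. Ccl9 exceeded Ccl6 in all 4 FF libraries, by 6.55-fold to 77.8-fold in FPKM. In FFC the ratio of Ccl9 to Ccl6 was 0.118, 14.1, 5.43 and 0.347.

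The sequences before the transcription starts of Ccl6 and Ccl9 are shown because these neighbours are the most alike in coding sequence and differed in pattern. Both are the 250 bases before the RefSeq start in build GRCm38.p6 on the minus strand of chromosome 11, Ccl6 at chr11:83593088-83593337 and Ccl9 at chr11:83578637-83578886. Capitals mark the best local alignment between them, 17 bases with 16 identical.
Ccl6: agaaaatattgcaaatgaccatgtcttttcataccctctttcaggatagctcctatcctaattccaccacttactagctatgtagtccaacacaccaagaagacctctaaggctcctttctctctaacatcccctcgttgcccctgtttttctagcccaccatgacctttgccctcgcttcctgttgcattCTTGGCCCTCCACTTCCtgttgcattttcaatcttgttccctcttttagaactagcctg
Ccl9: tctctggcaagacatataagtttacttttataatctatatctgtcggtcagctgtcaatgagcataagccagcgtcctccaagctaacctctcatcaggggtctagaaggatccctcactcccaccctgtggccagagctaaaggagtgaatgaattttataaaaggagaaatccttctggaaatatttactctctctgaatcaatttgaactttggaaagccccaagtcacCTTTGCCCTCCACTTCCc
The shared stretch ended 43 bases before the start of Ccl6 and 2 bases before that of Ccl9. On both strands, the letters AGGAAG, found in many sites for the ETS factor PU.1, occurred 2 times in the Ccl6 window and 0 times in the Ccl9 window. Of 32817 promoter windows of this length, 29.5% hold them. The shorter core of ETS sites, GGAA, does occur in the Ccl9 window, so the count holds for the letters AGGAAG only. The letters TGANTCA, a loose form of the AP-1 site, occurred 1 time in the Ccl9 window (6.75% of all windows). The match reads TGAATCA, without the C or G that the usual AP-1 site has in the middle. The NF-kB motif occurred 1 time in the Ccl9 window (4.11%), and neither motif occurred in the Ccl6 window. TATAAA was found 3 times in the Ccl9 window, 2 of them overlapping, and 0 times in the Ccl6 window (12.4% of all windows). RefSeq promoter entries were matched for 5 of the 8 genes (Ccl3, Ccl6, Ccl9, Ccl12 and Ccr2).

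The ligands of Ccr2 did not separate the genotypes. Ccl2, which draws monocytes through Ccr2, had 151, 74.3, 117 and 110 FPKM in FFC 1 to FFC 4, and 22.0, 57.7, 307 and 17.9 FPKM in FF 1 to FF 4. As for Ccl3, FF 3 was above and the other 3 FF libraries were below all FFC libraries. Ccl2 differed by 1.06 ± 0.81 on the log2 scale (95% interval -0.68 to 2.80; exact two-sided permutation p = 0.314; limma adjusted p = 0.759). It was 1.91 without FF 3, 0.57 without FF 4, 0.66 without FF 1, and 0.39 without FF 2 and FF 4.

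Ccl7, the next gene along, had 8.53, 4.84, 17.6 and 30.0 FPKM in FFC 1 to FFC 4 and 75.8, 4.25, 116 and 0.213 FPKM in FF 1 to FF 4. FF 1 and FF 3 were above all FFC libraries and FF 2 and FF 4 below all of them. FFC minus FF was -0.21 ± 1.28 on the log2 scale (95% interval -2.97 to 2.55; exact two-sided permutation p = 0.943; limma adjusted p = 0.972). Without FF 2 and FF 4 it was -2.83 and the groups no longer overlapped (limma adjusted p = 0.709), as for 13.6% of all tested genes with those libraries left out. It was 0.56 without FF 1, 0.76 without FF 3 and 0.19 without FFC 2, and -1.43 without FF 4.

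Ccl12 was the most abundant of the 8 in all 8 libraries. It had 657, 475, 587 and 832 FPKM in FFC 1 to FFC 4, and 800, 155, 507 and 163 FPKM in FF 1 to FF 4. FF 2 and FF 4 were below the FFC range, and FF 1 and FF 3 within it. Ccl12 differed by 0.97 ± 0.57 on the log2 scale (95% interval -0.26 to 2.21; exact two-sided permutation p = 0.257; limma adjusted p = 0.759), and -0.03 without FF 2 and FF 4.

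Ccr2, the receptor of inflammatory monocytes, which resident microglia are known to express little, had 0.340, 55.2, 10.0 and 46.2 FPKM in FFC 1 to FFC 4. In FF 1 to FF 4 it had 45.6, 5.86, 20.1 and 19.1 FPKM. FFC 1 was the lowest of the 8 libraries, and the other values of the groups interleaved. The log2 difference was -0.45 ± 1.11 (95% interval -2.83 to 1.94; exact two-sided permutation p = 0.83; limma adjusted p = 0.920), and 0.68 without FFC 1. FFC 1 was not low in the 10-gene monocyte list, of which 8 were in the table: the sum was 51.0 to 158 FPKM in FFC, with 107 FPKM in FFC 1, and 35.2 to 105 FPKM in FF. Ly6c2, which marks inflammatory monocytes, is listed at 0 in FFC 4, FF 2, FF 3 and FF 4, and had 12 FPKM in FFC 1 and 7.68 FPKM in FF 1.

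In order of mean log2(FPKM + 1), FFC libraries gave Ccl12 (9.29), Ccl2 (6.79), Ccl9 (6.55), Ccl3 (6.28), Ccl6 (6.12), Ccl4 (5.68), Ccr2 (3.81) and Ccl7 (3.74). The step from Ccl12 to Ccl2 was larger than its spread over libraries (2.50 ± 0.35, SD), and each later step was smaller than its own SD. FF libraries gave Ccl12 (8.32), Ccl9 (6.87), Ccl2 (5.73), Ccr2 (4.26), Ccl7 (3.95), Ccl3 (3.51), Ccl6 (2.85) and Ccl4 (1.48). There the first step, from Ccl12 to Ccl9 (1.45 ± 1.27), and the last, from Ccl6 to Ccl4 (1.37 ± 1.28), exceeded their SD.

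As a share of the summed FPKM of the 7 ligands, a measure that scaling of the libraries cannot change, Ccl4 held 5.25%, 2.45%, 6.60% and 3.73% in FFC 1 to FFC 4, against 0.182%, 0.269%, 0.749% and 0% in FF 1 to FF 4. Ccl6 held 8.20%, 2.75%, 5.40% and 8.95% in FFC, against 0.150%, 1.75%, 1.63% and 2.04% in FF. Neither share overlapped between the groups. Ccl12 held 42.9% to 66.2% in FFC and 33.7% to 77.8% in FF. The sum of the 7 ligands was 1088 to 1323 FPKM in FFC, and 1028, 259, 1505 and 318 FPKM in FF 1 to FF 4.

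**Figure D2:**
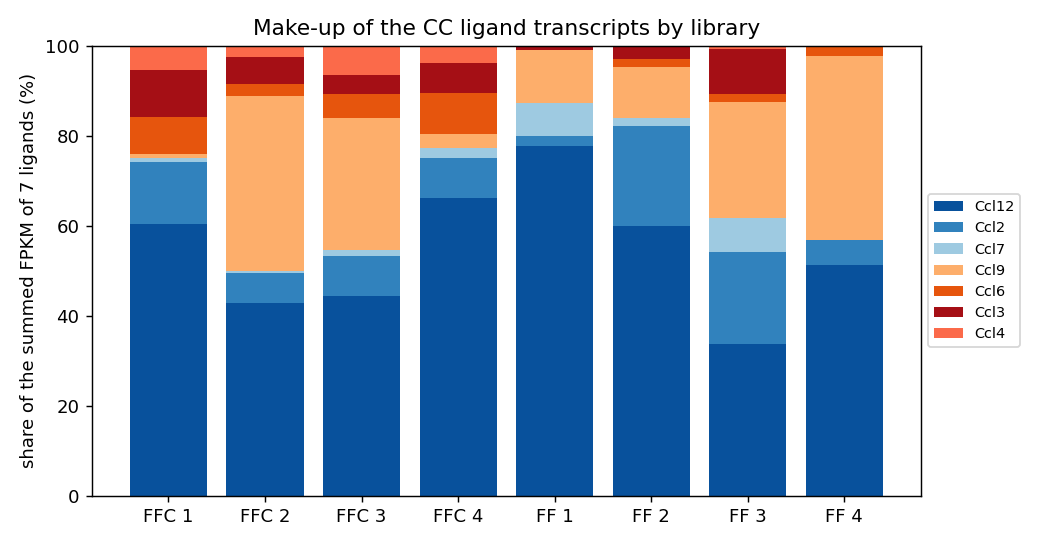
Share (%) of each ligand in the summed FPKM of the 7 ligands, one bar per library, FFC libraries on the left and FF libraries on the right. Ccl12 (dark blue) is the largest part of every bar, and the Ccl4 part at the top is 2.45% to 6.60% in FFC and 0% to 0.749% in FF.

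The difference between genotypes ran in opposite directions in the sexes for some genes, but no gene passed a test of that. For Ccl9 the log2 difference of FFC and FF was -2.55 in females (4.43 against 6.98) and 1.90 in males (8.68 against 6.77), a gap of 4.46 ± 1.66 between the sexes (limma interaction, unadjusted p = 0.0216, adjusted p = 0.9995). For Ccl2 it was 2.64 in females (7.02 against 4.38) and -0.51 in males (6.56 against 7.07), a gap of -3.15 ± 1.37 (unadjusted p = 0.0424, adjusted p = 0.9995). Ccl4 was higher in FFC by 4.96 in females and 3.45 in males and Ccl6 by 4.53 and 2.01, without overlap within either sex. At an unadjusted p under 0.05 the interaction gave 2 of 8 genes, beside 3.19% of all tested genes, and at an adjusted p under 0.05 it gave 0 of 8, beside 0.0%. Each sex has 2 libraries per genotype. By the month in the sample titles, both male FFC libraries are of December and both male FF libraries of November. Genotype and month can therefore not be told apart in males, nor in the gap between the sexes. Each female group has 1 library of each month.

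**Figure D3:**
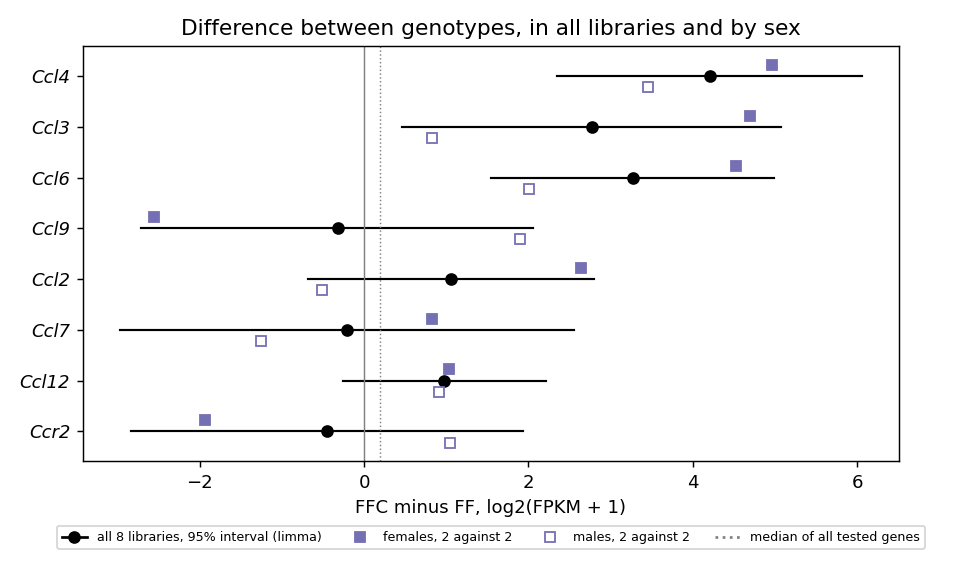
Difference between FFC and FF on the log2(FPKM + 1) scale (horizontal axis) for each gene (rows): black points and lines give all 8 libraries with the 95% interval of the limma fit, filled squares females and open squares males, and the dotted line the median of all tested genes (0.19). The intervals of Ccl4, Ccl3 and Ccl6 lie above 0, before any adjustment, and the female and male squares of Ccl9, Ccl2, Ccl7 and Ccr2 lie on opposite sides of 0.

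The sample titles carry a month, whose meaning the labels do not give, and it falls unevenly on the genotypes: 1 FFC and 3 FF libraries are of November, 3 FFC and 1 FF of December. Within November the log2 difference was 3.89 for Ccl4, 3.67 for Ccl6 and 2.47 for Ccl3. Within December it was 5.62, 3.09 and 5.18 in the same order. For Ccl9 it was -3.29 and 0.53, for Ccl7 -1.92 and 3.63, and for Ccr2 -3.82 and 0.62, while Ccl2 (1.02 and 2.40) and Ccl12 (0.72 and 1.91) were higher in FFC in both. With 1 library on one side of each, these values have no test. The November FFC library is FFC 1 and the December FF library is FF 4. Both are from females, while the libraries they are set against are of both sexes. FF 4 had the lowest summed FPKM (367760), with Ccl4 listed at 0 and Ccl3 at 0.890 FPKM.

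On chromosome 11, the estimated differences of neighbouring ligand genes varied, and no test compared neighbours. The estimates below 0, for Ccl9 and Ccl7, had 95% intervals on both sides of 0 (-2.71 to 2.06 and -2.97 to 2.55), so their sign is not settled. In the stretch from Ccl5 to Ccl4, the log2 differences of the ligands were 3.12 for Ccl5, -0.32 for Ccl9, 3.27 for Ccl6, 2.77 for Ccl3 and 4.21 for Ccl4. Ccl5 overlapped between the groups (limma adjusted p = 0.759). In the other stretch they were 1.06 for Ccl2, -0.21 for Ccl7 and 0.97 for Ccl12. Ccl11, between Ccl7 and Ccl12, was below the level tested, with a highest value of 0.666 FPKM in FFC and 1.83 FPKM in FF.

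**Figure D4:**
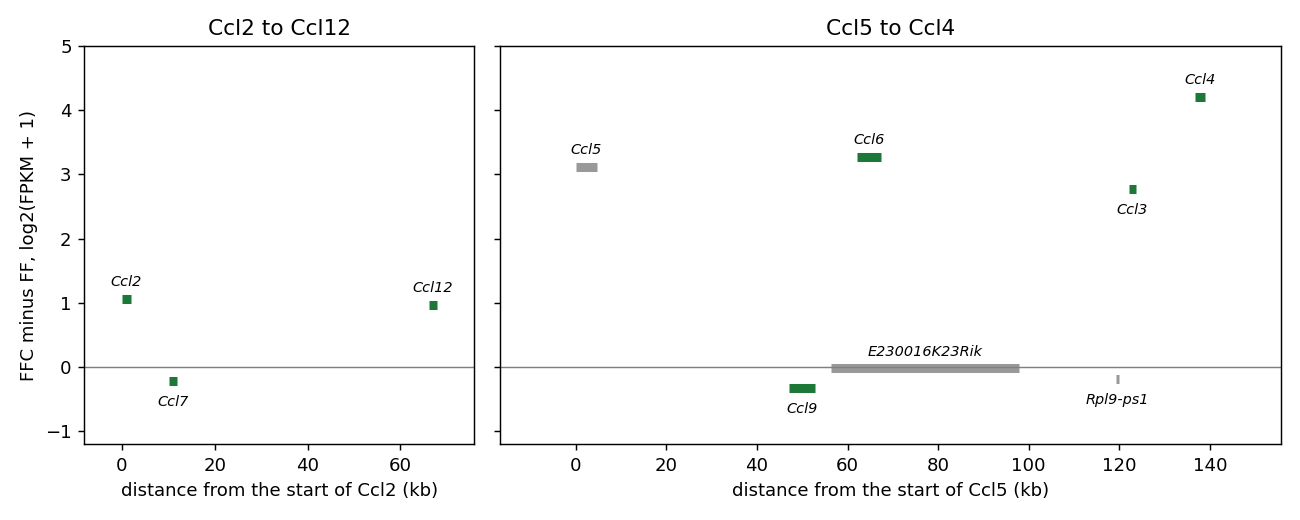
Difference between FFC and FF on the log2(FPKM + 1) scale for tested genes of the 2 chromosome 11 stretches, against distance from the start of Ccl2 (left) or Ccl5 (right) in kb; green bars are the chemokines described, grey bars other genes, and bar width is the interval in the table. Ccl9, at -0.32 (95% interval -2.71 to 2.06), stands beside Ccl6, at 3.27 (1.55 to 4.99). Intervals are not drawn.

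Over the 8 libraries, the genes whose log2(FPKM + 1) was most like that of Ccl4 by Pearson's r, searched over 8097 genes whose mean reached 5 FPKM, were Mylip (0.984), Got1 (0.982) and Fbrsl1 (0.973). Mylip, a ubiquitin ligase that lowers the LDL receptor, had 33.9, 23.0, 45.9 and 37.0 FPKM in FFC 1 to FFC 4, and 7.39, 2.64, 18.8 and 3.03 FPKM in FF 1 to FF 4. For Ccl6 they were Efha1 (0.969), Slc25a45 (0.967) and Galnt7 (0.961), and for Ccl3 they included Atp5b (0.967) and Actr3 (0.966). For Ccl12 they were Ctsa (0.987), Rpl14 (0.987) and Ints9 (0.983). Values this high are the top of 8097 genes over 8 points that share their genotypes and libraries, and they carry no test. Ctsa, the lysosomal carboxypeptidase cathepsin A, was low in FF 2 and FF 4 (652 and 541 FPKM), as Ccl12 was.

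The receptors of the ligands were measured too. Of 14 other CC receptors and decoy receptors, 11 were tested, with 4 higher and 7 lower in FFC. The median log2 difference was -0.21 beside 0.19 for all genes (-0.79 without FF 2 and FF 4). At an unadjusted limma p under 0.05 there was 1, higher in FFC, beside 4.52% of all tested genes higher. At an adjusted p under 0.05 there were 0. Ccr1, the receptor of Ccl6 and Ccl9, had 12.4, 12.1, 4.53 and 22.5 FPKM in FFC, and 37.6, 3.25, 10.0 and 7.60 FPKM in FF. Of the rest Ccr7, which guides cells to lymph nodes, had at most 0.134 FPKM in FFC, with 6.26 and 13.7 FPKM in FF 1 and FF 2 and 0 listed in FF 3 and FF 4. Of 15 other CC ligands 14 were in the table and 10 were tested, 2 higher and 8 lower in FFC (median -0.74, and -1.55 without FF 2 and FF 4), with 0 at an unadjusted p under 0.05 and 0 at an adjusted one. Ccl19, a ligand of Ccr7, had 0.865, 0.159, 1.07 and 1.23 FPKM in FFC and 6.28, 2.71, 7.80 and 2.72 FPKM in FF, without overlap (limma adjusted p = 0.759), where 1.29% of tested genes were lower without overlap.

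Among genes that signal downstream of the receptors, most differences were small. Of 20 genes 18 were higher and 2 lower in FFC, with a median of 0.48, and of -0.04 without FF 2 and FF 4. At an unadjusted p under 0.05 there was 1, beside 4.52% of all tested genes higher: Rgs1, a brake on G protein signalling (9.37, 44.2, 33.4 and 74.0 FPKM in FFC, and 6.20, 3.57, 32.0 and 3.50 FPKM in FF; limma adjusted p = 0.754). Of 15 cytokines, sensors and transcription factors that induce chemokine genes, 14 had a higher mean in FFC, and the median difference was 0.95, or 0.63 without FF 2 and FF 4. At an unadjusted p under 0.05 there were 4, all higher, among them Tnf, Irf1 and Il1a, beside 4.52% of all tested genes higher, and at an adjusted p under 0.05 there were 0. The cytokine Tnf had 12.5, 17.0, 16.9 and 12.1 FPKM in FFC, and 0.999, 0, 6.87 and 1.12 FPKM in FF. Irf1, a transcription factor induced by interferon, had 28.3, 26.4, 22.4 and 9.79 FPKM in FFC, and 5.23, 0.307, 3.48 and 7.64 FPKM in FF. Neither overlapped between the groups (limma adjusted p = 0.651 and 0.712), where 3.05% of tested genes were higher without overlap.

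Immediate-early genes, which tissue dissociation is also known to induce, were highest in the FF library with the most Ccl3. Of 14 tested, 13 were higher in FFC (median 1.51, and 0.84 without FF 2 and FF 4), 4 of them at an unadjusted p under 0.05 (Zfp36, Junb, Egr1 and Ier3), beside 4.52% of all tested genes higher, and 0 at an adjusted one. Their summed level was 218, 932, 887 and 1695 FPKM in FFC 1 to FFC 4, and 182, 88.9, 933 and 147 FPKM in FF 1 to FF 4. FF 3, the FF library in which Ccl2, Ccl3, Ccl4, Ccl6 and Ccl7 were highest, was also highest in that sum. FFC 1 had a sum near that of FF 1, and more Ccl4 (57.1 against 1.87 FPKM) and Ccl3 (114 against 6.71 FPKM). The single genes of that sum differed. Zfp36, Junb, Egr1 and Ier3 had 56.6, 28.8, 49.3 and 15.7 FPKM in FFC 1, against 27.5, 12.1, 12.8 and 0 FPKM in FF 1. Ier2 and Btg2 were also higher in FFC 1 than in FF 1, and Jun, Fos, Fosb, Jund, Atf3, Dusp1, Nr4a1 and Nfkbia were lower. Fosb, Ier2 and Ier3 are listed at 0 in some library.

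Neutrophil markers were low in the FFC libraries that were low in Ccl9. The 8 markers summed to 7.64, 550, 829 and 5.44 FPKM in FFC 1 to FFC 4, against 2813, 244, 392 and 193 FPKM in FF 1 to FF 4. The low libraries, FFC 1 and FFC 4, were those with the least Ccl9 in FFC. S100a8, an abundant neutrophil protein, had 0.785, 278, 337 and 0 FPKM in FFC and 975, 133, 218 and 52.9 FPKM in FF. Of the 8, 1 was higher and 7 lower in the mean in FFC (median -1.44, and -3.00 without FF 2 and FF 4), and S100a8, Camp and Retnlg are listed at 0 in some library. In FF the order was not shared: FF 1 had the highest neutrophil sum and 120 FPKM of Ccl9, below FF 3 and FF 4. The part of these cells in Ccl9, and of dissociation in Ccl3 and Ccl4, was not tested.

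**Figure D5:**
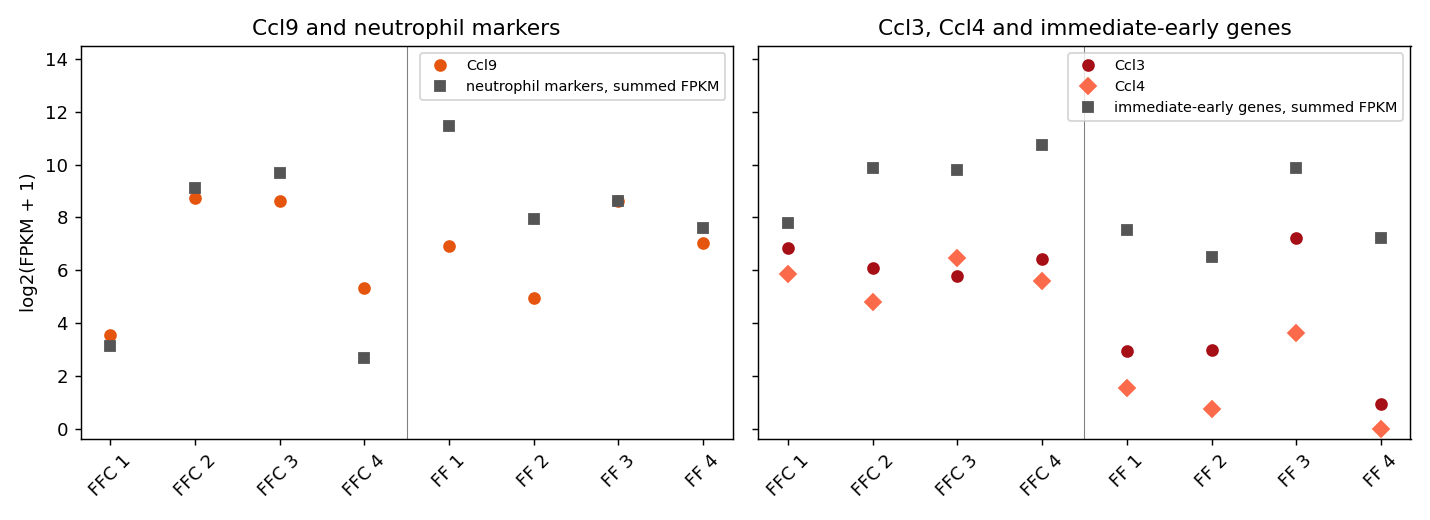
Level in each library, as log2(FPKM + 1), of Ccl9 and the summed FPKM of 8 neutrophil markers (left) and of Ccl3, Ccl4 and the summed FPKM of 14 immediate-early genes (right), with FFC libraries left of the line and FF libraries right of it. Ccl9 and the neutrophil sum are both low in FFC 1 and FFC 4, and Ccl4 is above 4 in all 4 FFC libraries and below 4 in all 4 FF libraries.

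None of the lists for other leukocytes had most of its tested members higher in FFC. Of 8 border macrophage markers, 1 was higher and 7 lower in FFC (median -0.85, and -1.52 without FF 2 and FF 4), with sums of 141 to 1259 FPKM in FFC and 844 to 1688 FPKM in FF and none at 0. Stab1, a scavenger receptor, was the 1 at an unadjusted p under 0.05 (beside 1.94% of all tested genes lower), at 311, 65.3, 35.3 and 265 FPKM in FFC and 535, 716, 247 and 439 FPKM in FF. Of 7 tested T and NK cell markers, 1 was higher and 6 lower in FFC (median -0.65, and -2.08 without FF 2 and FF 4), with sums of 6.26 to 58.0 FPKM over the 9 listed in FFC and 33.6 to 458 FPKM in FF. Lck, a T cell kinase, had 1.01, 0.386, 3.51 and 5.96 FPKM in FFC and 79.7, 15.9, 14.6 and 29.4 FPKM in FF, without overlap (limma adjusted p = 0.546), where 1.29% of tested genes were lower without overlap. Of the 8 monocyte markers, 4 were higher and 4 lower (median 0.12, and -0.55 without FF 2 and FF 4), with Ly6c2, Plac8 and Hp among those listed at 0 in some library. The 12 microglial markers had 10 higher and 2 lower (median 0.45, and -0.10 without FF 2 and FF 4), none at an unadjusted p under 0.05. Of 8 astrocyte markers 5 were tested, 2 higher and 3 lower in FFC (median -0.26), with Gfap, Aqp4, Aldoc and Gja1 listed at 0 in some library. The sums were 89.1 to 187 FPKM in FFC and 114 to 325 FPKM in FF. Slc1a3 alone had 85.8, 162, 124 and 182 FPKM in FFC 1 to FFC 4, and 192, 62.6, 185 and 49.7 FPKM in FF 1 to FF 4. The secreted chaperone Clu in that list had 0.887, 1.84, 3.45 and 0.0124 FPKM in FFC and 127, 36.3, 23.4 and 61.9 FPKM in FF, also without overlap (limma adjusted p = 0.382). No gene of these lists passed at an adjusted p under 0.05, and their part in Ccl4 and Ccl6 was not tested.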

How the data were processed

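Gene FPKM values (fragments scaled by transcript length and by the mapped total) were used as deposited; per the submitters' processing notes, the tools were Cufflinks 2.0.2, Bowtie2 2.0.0, TopHat2 2.0.4 and CASAVA 1.8.2, with build mm9. RNA was amplified with an Ovation kit before paired-end sequencing, per the labels' protocols. The sources used here give no gene annotation, settings or use of strand, and near-identical copies may share reads. Estimated FPKM allows no count test, so depth is unknown.

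From the deposited FPKM, log2(FPKM + 1) was computed, and genes whose mean reached 1 FPKM (17753) were fitted with limma 3.58.1 (R 4.3.3, trend), with Benjamini-Hochberg adjustment over all of them; all 8 members passed this filter. Folds on this scale understate the change of low genes. The fit was tested on data simulated with the mean and spread of each tested gene. At an adjusted p under 0.05 it recovered 0.1% of changes of 1 log2 unit and 2.7% of changes of 2. Of changes of 4 it recovered 50.2%, and of changes of 6, 79.7%. Changes of 1 or 2 log2 units would thus mostly go uncalled. Each of the 20 runs changed 200 genes at once, 50 of each size, drawn only from genes of higher mean. The recovery need not hold for a gene that changes alone or for a low gene. A mean of 3.3 unchanged genes per run was also called. Single genes were also compared by an exact two-sided permutation test over 70 arrangements. The members and lists were chosen with earlier results of these data known. From each list, up to 4 genes with the smallest unadjusted p are named, and for each member 3 most similar genes; Ccr1, Ccl11, Gfap, E230016K23Rik and the markers named because they are listed at 0 lie outside this rule and were chosen after their values were seen. Some genes that the rule names, and a sequence, are not reported here. Genes with a missing value in any library (447) were left out of library sums.

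Replicate numbers were not used as pairs in the main fit, although same-numbered libraries share a sex. The 4 correlations of deviations between same-numbered libraries ran from -0.0516 to 0.0344. Those between libraries of different number ran from -0.118 to 0.118. With so few libraries, these values cannot settle whether the numbers mark pairs.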

Additional observations from a re-analysis of the deposited data

How the results depend on the processing

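Over 22 alternatives (pseudocount, filter, scaling, variance model, covariates and left-out libraries), Ccl4 differed by 2.89 to 5.44 and Ccl6 by 2.62 to 3.88 on the log2 scale, each at an unadjusted limma p under 0.05 in all 22 and with adjusted p from 0.294 to 0.864 and from 0.332 to 0.864. Ccl3 was at an unadjusted p under 0.05 in 13 of 22. Ccl7 changed sign with a pseudocount of 0.1 (0.23) and with title month as a covariate (0.85), and ranged from -1.43 to 0.76 when 1 library was left out, with 0.19 without FFC 2, 0.56 without FF 1 and 0.76 without FF 3. Ccl9 was 0.24 with array weights and ranged from -1.06 to 0.68 with 1 library left out, above 0 without FFC 1 (0.68), FFC 4 (0.09) or FF 3 (0.25). Ccr2 ranged from -1.60 (title month as a covariate) to 0.68 over the 22 and from -1.11 to 0.68 with 1 library left out, above 0 only without FFC 1. Ccl12 was -0.03 without FF 2 and FF 4. The cause was not tested in any of these. The genes called at an adjusted p under 0.05 numbered 0 to 1 with 1 library left out, SNORA65 without FFC 4 (adjusted p = 0.00177) and Mir15a without FF 1 (adjusted p = 0.000155). The members without overlap numbered 2 to 4, with 4 (Ccl2, Ccl3, Ccl4 and Ccl6) without FF 3, where 9.28% of all tested genes did not overlap, against 4.34% in all 8 libraries. Upper-quartile scaling moved the median of all genes to 0.02, against 0.19 as deposited. With the replicate number as a block, Ccl4 differed by 4.21 (adjusted p = 0.614) and 1014 genes were at an unadjusted p under 0.05, against 1146 without it, and the block changed no call. Upper-quartile scaling without FF 2 and FF 4 together was chosen after seeing the data. Without read counts, values near 0 cannot be given a counting error.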
